A study of Mus musculus with 10 samples.

Results

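The genes described here are those of the mucus that goblet cells of the colon make: Muc2, Agr2, Clca1, Zg16, Fcgbp, Tff3, Tff1, Spink4 and Retnlb. They were named as a list and taken from the array by the gene symbol of the platform annotation, using probe sets that carry a single symbol. Of these 9 genes, 8 were measured, each by 1 probe set, out of 18820 genes in all. Fcgbp, which encodes an abundant protein of the mucus layer, had 1 probe set that carried several symbols, and it is not analysed here.

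Goblet cells are secretory cells of the intestinal epithelium. They pack the gel-forming mucin MUC2 into granules and release it onto the surface, where it swells into the mucus layer that keeps bacteria away from the tissue. They arise from crypt progenitors in which Notch signalling is low and the transcription factor Atoh1 is active, and Spdef acts in their maturation.

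RNA of colonic organoids, cultures of epithelial cells grown from isolated crypts in Matrigel, was hybridised to Affymetrix whole-transcript arrays. The donors were male mice of a C57BL/6J background, 3 homozygous knockout (KO) mice and 3 wild-type (WT) littermates. All groups grew in a medium with Wnt, Noggin, R-spondin, EGF, nicotinamide and the additives named in the labels as A83, p38 and kinase inhibitor, and were treated for 24 h with 1 µM rosiglitazone, a drug that activates the nuclear receptor PPARγ, or with 0.1% DMSO as vehicle. The KO rosiglitazone group held 3 arrays (replicates 1, 2 and 3 from mice 46, 45 and 44), the KO vehicle group 2 arrays (mice 46 and 44), the WT rosiglitazone group 3 arrays (replicates 1, 2 and 3 from mice 48, 42 and 47) and the WT vehicle group 2 arrays (mice 42 and 47). In the KO mice, Cre under the villin promoter, which is active in the intestinal epithelium, acted on a Pparg allele whose exons 1 and 2 were flanked by loxP sites. The labels give no ages of the mice. Nothing in the labels says whether the arrays of a mouse shared a culture. Mice 45 and 48 had no vehicle array, so drug and mouse cannot be told apart in their arrays.

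Pparg, the targeted gene, was measured by 1 probe set. It read 8.78, 7.37 and 8.41 in KO rosiglitazone arrays, 8.58 and 8.47 in KO vehicle arrays, 8.30, 7.59 and 7.93 in WT rosiglitazone arrays, and 8.34 and 8.41 in WT vehicle arrays (log2 RMA expression, in the order of replicates). KO minus WT was 0.14 (SE 0.38, adjusted p = 0.96) in vehicle and 0.25 (SE 0.31, adjusted p = 0.999) in rosiglitazone. The labels do not place this probe set relative to the deleted exons, so these values do not check the deletion, and every genotype below is the labelled one. Of 17 measured PPAR target genes, 15 had a higher mean in rosiglitazone in WT organoids (median 0.13), where 54.3% of probe sets did. In KO organoids 9 did (median 0.02), where 46.4% of probe sets did. None passed an adjusted p of 0.05, and the list was chosen with earlier results known. Loss of the receptor was not tested. Over all annotated probe sets, arrays of a group correlated at r from 0.986 to 0.996. The first principal component, with 27.4% of the variance, set both arrays of mouse 46 (31.8 and 39.3) apart from the other arrays (-19.6 to 4.10). Of 16 markers of cells outside the epithelium, 1 had a mean above the median of all probe sets (Cd68, named after its value was seen), and their mean level lay between 3.02 and 3.13 on every array. In bulk organoid RNA, fewer goblet cells and less RNA per goblet cell cannot be told apart.

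The promoters of Muc2 and Agr2, a mucin and the enzyme that folds it, are shown because a promoter window was available for them. Of the 8 measured members, these 2 had an entry in the RefSeq promoter table (GRCm38.p6), which gives 250 bases before to 50 bases after the annotated start. The Muc2 window is chr7:141690090-141690389 on the plus strand and the Agr2 window is chr12:35992675-35992974 on the plus strand. Capitals mark the matches, on either strand, to the E-box letters CAGCTG that Atoh1 binds and to the CACCC box bound by Klf4, a factor of goblet cell maturation.
Muc2: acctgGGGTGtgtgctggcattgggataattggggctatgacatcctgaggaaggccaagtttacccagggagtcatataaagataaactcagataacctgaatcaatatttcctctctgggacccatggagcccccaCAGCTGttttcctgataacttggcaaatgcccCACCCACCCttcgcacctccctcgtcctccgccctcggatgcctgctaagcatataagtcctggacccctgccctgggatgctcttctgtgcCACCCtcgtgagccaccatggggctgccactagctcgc
Agr2: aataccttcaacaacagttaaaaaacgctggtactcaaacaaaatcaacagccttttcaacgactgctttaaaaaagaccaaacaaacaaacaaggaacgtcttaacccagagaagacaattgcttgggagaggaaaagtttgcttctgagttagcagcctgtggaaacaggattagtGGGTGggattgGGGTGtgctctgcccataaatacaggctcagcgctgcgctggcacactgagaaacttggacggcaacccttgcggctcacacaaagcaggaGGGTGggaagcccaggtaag
The Muc2 window held CAGCTG once, at -112 from the start, and the Agr2 window held 0 matches. CACCC occurred 4 times in the Muc2 window (at -245, -80, -76 and 12) and 3 times in the Agr2 window (at -72, -61 and 30). Of 32851 promoter windows of this length, 16.3% held CAGCTG and 57.5% held CACCC. Neither window held AGGTCA, a nuclear receptor half-site found in 16.3% of windows, nor its direct repeat with 1 base between the copies, which PPARγ and its partner RXR bind and which was in 0.0396%. Both also had 0 matches to TGTTTAC, a forkhead motif (3.65% of windows), to CCGGAT (6.04%), a core that Spdef binds, and to the longer ACCCGGATG (0.207%). AGGTCA lies within that repeat, and CCGGAT within ACCCGGATG.

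Across the 10 arrays, 7 of the 8 genes varied together over a wide range, and Tff1 did not take part. KO rosiglitazone replicate 2 (mouse 45) was the highest array for 7 of 8 genes, and KO rosiglitazone replicate 3 (mouse 44) was second for 6 of 8. The lowest array came from mouse 46, also labelled KO, for 7 of 8. All values below are RMA expression on the log2 scale, where 1 unit is a doubling, and arrays are given in the order of replicates.

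Muc2, the gel-forming mucin itself, read 3.92, 8.47 and 6.59 in KO rosiglitazone arrays, 3.71 and 5.60 in KO vehicle arrays, 4.52, 6.03 and 4.69 in WT rosiglitazone arrays, and 6.15 and 5.03 in WT vehicle arrays. The groups overlapped, and the KO groups held both the highest and the lowest array. Group means were 6.33 ± 2.28 (SD, n = 3) in KO rosiglitazone, 4.65 ± 1.34 (n = 2) in KO vehicle, 5.08 ± 0.83 (n = 3) in WT rosiglitazone and 5.59 ± 0.79 (n = 2) in WT vehicle.

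Agr2, a protein disulfide isomerase of the endoplasmic reticulum that mucin folding needs, read 3.77, 8.85 and 6.65 in KO rosiglitazone arrays, 3.42 and 6.43 in KO vehicle arrays, 4.81, 5.39 and 5.06 in WT rosiglitazone arrays, and 6.37 and 6.41 in WT vehicle arrays. Both WT vehicle arrays lay above the 3 WT rosiglitazone arrays, and within the KO label mouse 46 read below mouse 44 under either treatment. Clca1, a secreted metalloprotease that cleaves MUC2, read 3.74, 9.26 and 7.97 in KO rosiglitazone arrays, 3.63 and 6.72 in KO vehicle arrays, 3.78, 6.50 and 5.96 in WT rosiglitazone arrays, and 6.88 and 6.05 in WT vehicle arrays. Its 3 low arrays were those of mouse 46 and the single array of mouse 48. Zg16, a lectin of the mucus that binds Gram-positive bacteria, read 4.93, 8.90 and 7.28 in KO rosiglitazone arrays, 4.67 and 6.52 in KO vehicle arrays, 4.85, 6.24 and 6.63 in WT rosiglitazone arrays, and 7.16 and 6.03 in WT vehicle arrays. Zg16 was low on the same 3 arrays as Clca1.

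Tff3, the trefoil peptide of intestinal goblet cells, read 3.93, 8.44 and 6.33 in KO rosiglitazone arrays, 5.38 and 5.88 in KO vehicle arrays, 4.39, 5.02 and 5.59 in WT rosiglitazone arrays, and 5.60 and 5.42 in WT vehicle arrays. It differed from the genes above in the vehicle array of mouse 46, which lay close to the other vehicle arrays. Tff1, a trefoil peptide mainly of the stomach, stayed between 3.33 and 3.96 on the 10 arrays. It read 3.44, 3.44 and 3.33 in KO rosiglitazone arrays, 3.96 and 3.79 in KO vehicle arrays, 3.51, 3.46 and 3.61 in WT rosiglitazone arrays, and 3.89 and 3.56 in WT vehicle arrays. The KO rosiglitazone arrays lay below both KO vehicle arrays, and the WT groups overlapped. The mean of Tff1 over the arrays (3.60) was under the median of all probe set means (4.51), so it was a dim probe set.

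Spink4, a Kazal-type protease inhibitor secreted by goblet cells, read 3.51, 8.77 and 6.07 in KO rosiglitazone arrays, 3.74 and 5.12 in KO vehicle arrays, 3.97, 4.75 and 3.76 in WT rosiglitazone arrays, and 5.01 and 3.81 in WT vehicle arrays. Mouse 45 stood 2.70 above the next array. Retnlb, the secreted resistin-like molecule beta, read 2.75, 7.01 and 3.20 in KO rosiglitazone arrays, 2.41 and 3.16 in KO vehicle arrays, 2.75, 3.29 and 3.21 in WT rosiglitazone arrays, and 3.04 and 3.72 in WT vehicle arrays. Retnlb was dim (mean 3.45) apart from the array of mouse 45, which stood 3.28 above the next.

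**Figure D1:**
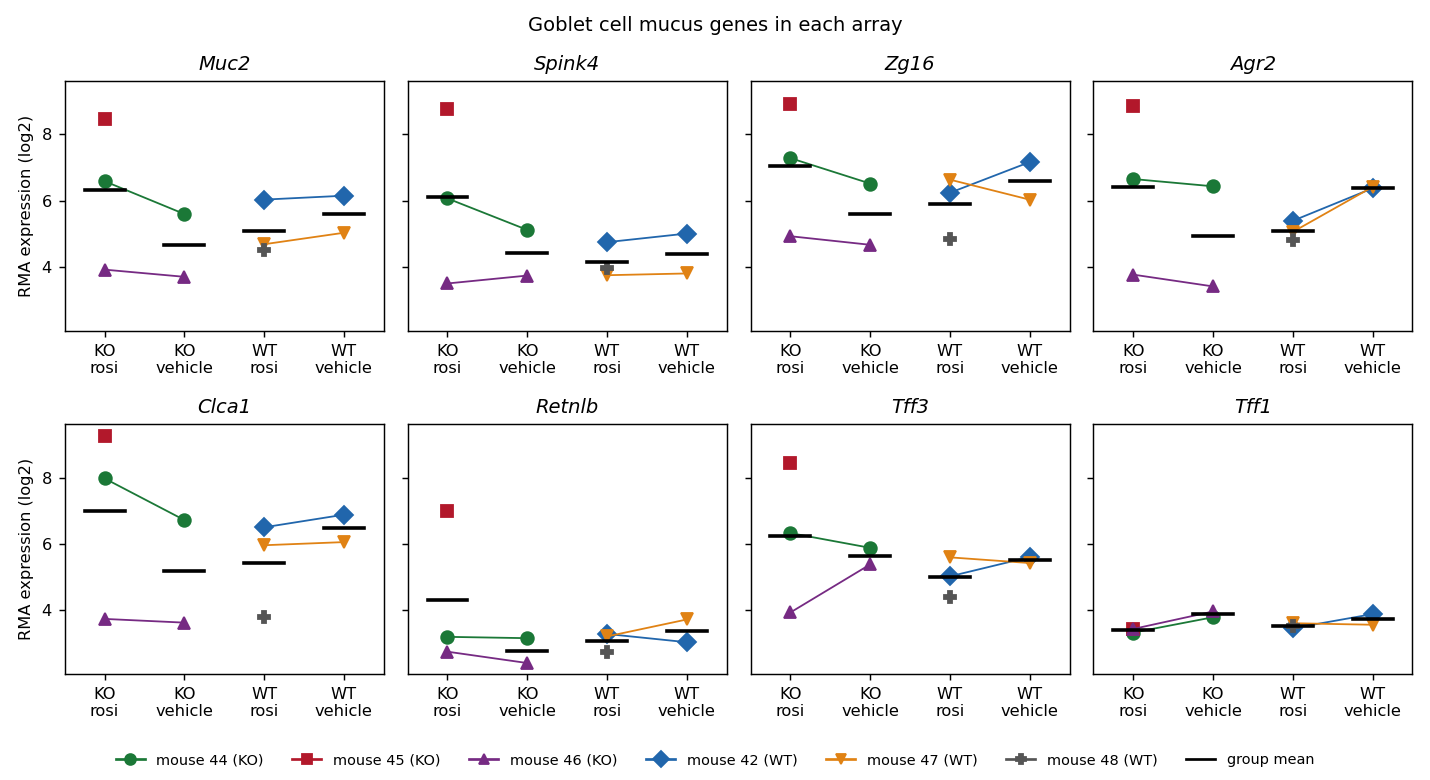
RMA expression (log2, vertical axis) of the 8 measured genes in each array, by group (horizontal axis), with 1 symbol per mouse, lines joining the arrays of a mouse and black bars for group means. The array of mouse 45 (red square) is highest in 7 of 8 panels, and mouse 46 (purple) reads below 4 for Muc2, Spink4, Agr2 and Clca1 under both treatments.

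The spread of these genes was among the widest on the array. The SD over the 10 arrays was at the 99.8th to 99.96th percentile of all genes for the 7 genes other than Tff1, with ranges of 4.23 (Zg16) to 5.64 (Clca1), and at the 60.7th percentile for Tff1, with a range of 0.64. The gap between the highest and the second array ran from 1.29 (Clca1) to 3.28 (Retnlb) in those 7 genes. In the 4 mice with arrays of both treatments, mice differed by more than treatments did within a mouse for most members. For Clca1 the 4 mouse means (7.35 in mouse 44, 3.68 in mouse 46, 6.69 in mouse 42 and 6.01 in mouse 47) spanned 3.66, against a largest difference of 1.25 between the arrays of a mouse. For Muc2 the span was 2.28 against 0.99, for Agr2 2.95 against 1.35, for Zg16 2.10 against 0.93, for Spink4 1.97 against 0.95, and for Retnlb 0.89 against 0.51. Tff3 had 1.45 against 1.45. Tff1 had the reverse, with 0.14 between mice against 0.53 within a mouse.

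Pairs of members were correlated over the arrays as a description, since arrays of a mouse share a donor and arrays of a group a treatment. The 21 pairs without Tff1 had Pearson r from 0.73 (Clca1 with Retnlb) to 0.97 (Zg16 with Clca1), with a median of 0.87, over 10 arrays, and Spearman rho from 0.48 to 0.99, with a median of 0.84. The 7 pairs with Tff1 had r from -0.35 to -0.09. On deviations from group means, which leave out differences between groups, the 21 pairs had r from 0.68 to 0.98 (median 0.90). The KO rosiglitazone group had the widest spread (SD of Muc2 2.28, against 0.83 in WT rosiglitazone), so this view leans on it. It was not repeated without mouse 45, and the 2 arrays of a vehicle group give mirrored deviations. Over 6 mouse means r ran from 0.81 to 0.99 (median 0.95).

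Single arrays carried part of this. Without KO rosiglitazone replicate 2, r over 9 arrays ran from 0.27 to 0.96 with a median of 0.76. Spink4 with Retnlb had 0.27, against 0.87 with all 10 arrays, while Zg16 with Clca1 stayed at 0.96 and Muc2 with Clca1 at 0.93. Leaving out mice 45 and 46 gave r from -0.15 to 0.93 (median 0.66) over 7 arrays. In the 5 WT arrays alone r ran from -0.23 to 0.94 (median 0.55).

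**Figure D2:**
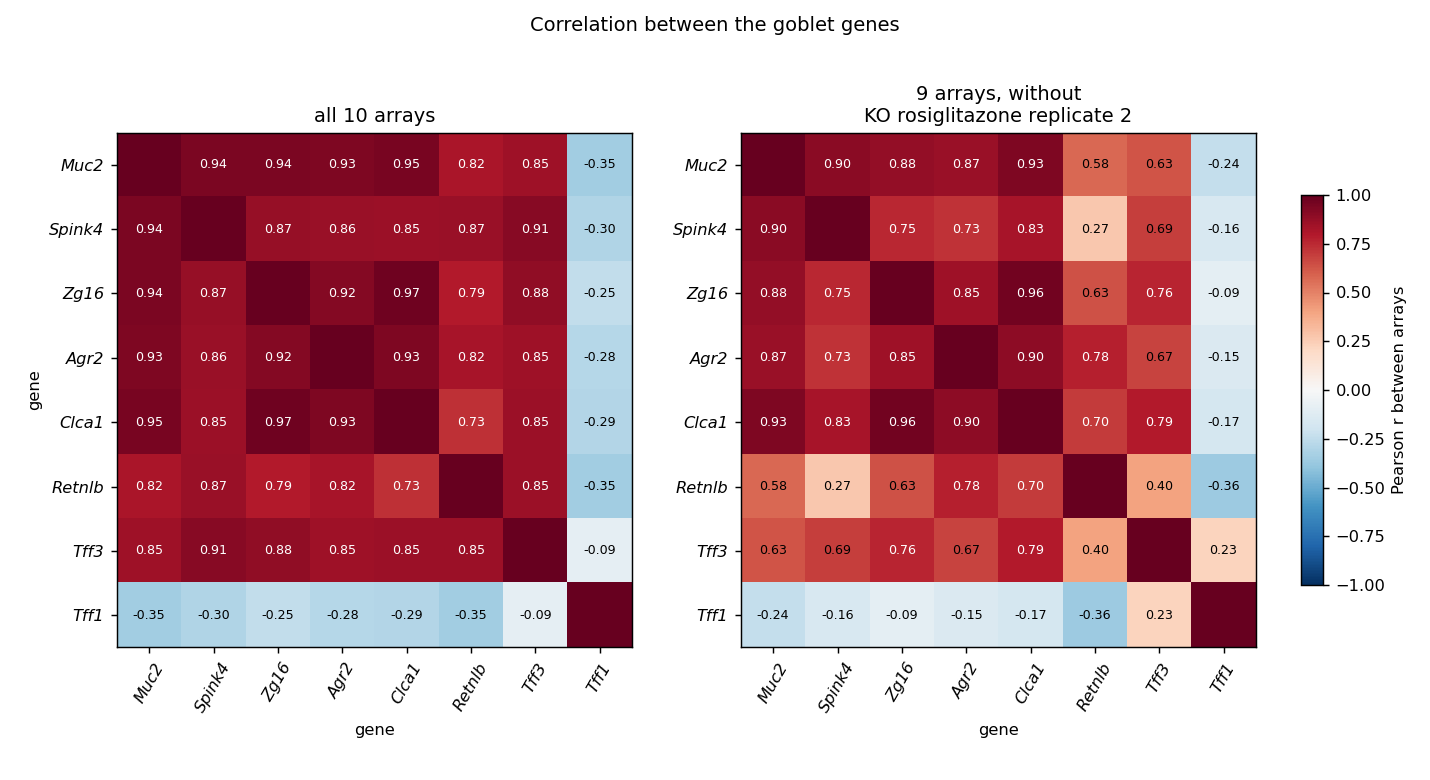
Pearson r between each pair of the 8 genes (both axes) over all 10 arrays (left) and over 9 arrays without KO rosiglitazone replicate 2 (right), with the colour from blue (-1) to red (1). The 21 pairs without Tff1 lie at 0.73 or above on the left, and on the right the pairs with Retnlb or Tff3 are lower than those among Muc2, Zg16, Agr2 and Clca1.

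The difference between rosiglitazone and vehicle in KO organoids asks whether the drug moved these genes where the receptor was deleted by label. None of the 8 genes passed the threshold, and 7 of 8 had a higher mean in rosiglitazone. Clca1 differed by 1.82 (SE 1.45), Spink4 by 1.68 (SE 1.14), Muc2 by 1.67 (SE 1.07), Retnlb by 1.53 (SE 0.97), Agr2 by 1.50 (SE 1.20), Zg16 by 1.44 (SE 0.99) and Tff3 by 0.60 (SE 0.95), all on the log2 scale and all with an adjusted p of 1.00 in limma. The median over the 8 genes was 1.52, against -0.01 over all probe sets. All 7 were above 0.5, where 1.16% of probe sets lay, and 46.4% of probe sets were above 0. At an adjusted p under 0.05, 0% of the 23099 probe sets were called, and 3.06% (706) had an unadjusted p under 0.05. The standard errors were wide, with a median of 1.03 over these genes against 0.17 over all probe sets.

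The positive differences depended on single arrays. Without KO rosiglitazone replicate 2 (mouse 45) they were 0.60 for Muc2, 0.35 for Spink4, 0.51 for Zg16, 0.29 for Agr2, 0.68 for Clca1 and 0.19 for Retnlb, and Tff3 had -0.50. The median then was 0.32. It was 0.44 without KO vehicle replicate 1 and 2.66 without KO rosiglitazone replicate 1, both from mouse 46, and 2.37 without KO vehicle replicate 2 (mouse 44). Without both arrays of mouse 46, a setting chosen after the data were seen, the median was 1.74. With the mouse as a random block it was 1.00.

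Tff1 was the exception in direction, at -0.47 (SE 0.14, unadjusted p = 0.0059, adjusted p = 1.00). It was the only one of the 8 genes whose KO groups did not overlap, and 7.93% of all probe sets were lower in rosiglitazone without overlap. It was lower in both KO mice with arrays of both treatments, by -0.46 in mouse 44 and -0.53 in mouse 46. With the mouse as a random block it differed by -0.48 (unadjusted p = 0.00185, adjusted p = 0.551), and its level was below the median of all probe set means on every array.

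Within mouse 44, 7 of 8 genes were higher with rosiglitazone (median 0.61), where 51.8% of all genes were higher. The largest values were 1.25 for Clca1, 0.99 for Muc2, 0.95 for Spink4 and 0.77 for Zg16. Within mouse 46, 5 of 8 were higher (median 0.16; 47.7% of all genes), with 0.22 for Muc2, 0.36 for Agr2 and 0.11 for Clca1, against -0.24 for Spink4 and -1.45 for Tff3. The KO mice had opposite signs for Spink4 and Tff3. The fit with the mouse as a fixed block, which uses these pairs only, gave unadjusted p of 0.0183 for Muc2, 0.0339 for Clca1 and 0.0127 for Tff1, and none of the 8 genes passed after adjustment. The share of all probe sets under an unadjusted p of 0.05 in that fit was not counted. It has fewer residual degrees of freedom than the 6 of the main fit.

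In WT organoids all 8 genes had a lower mean in rosiglitazone than in vehicle, and none passed the threshold. Agr2 differed by -1.31 (SE 1.20), Clca1 by -1.05 (SE 1.45), Zg16 by -0.69 (SE 0.99), Muc2 by -0.51 (SE 1.07), Tff3 by -0.51 (SE 0.95), Retnlb by -0.30 (SE 0.97), Spink4 by -0.25 (SE 1.14) and Tff1 by -0.20 (SE 0.14), each with an adjusted p of 1.00. The median was -0.51, against 0.01 over all probe sets. Below -0.5 lay 5 of the 8 genes and 0.732% of all probe sets. Of all probe sets 0% were called at an adjusted p under 0.05, 0.991% (229) had an unadjusted p under 0.05, and 54.3% had a positive difference.

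Agr2 was the only member whose WT groups did not overlap, and 6.78% of probe sets were lower in rosiglitazone without overlap. It was lower in mouse 42 by -0.98 and in mouse 47 by -1.35. With the mouse as a fixed block the difference was -1.17 (SE 0.14), with an adjusted p of 0.257, the smallest for any member in any fit. The other genes were less even. Within mouse 42, 1 of 8 genes was higher with rosiglitazone (median -0.40; 53.3% of all genes were higher), and within mouse 47, 3 of 8 (median -0.07; 47.3%). Zg16 had opposite signs in these mice, -0.93 in mouse 42 and 0.60 in mouse 47. Without the single array of mouse 48, which had no vehicle partner, Clca1 differed by -0.24, and the median over the 8 genes was -0.20. The median was -0.96 without WT vehicle replicate 2 (mouse 47).

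**Figure D3:**
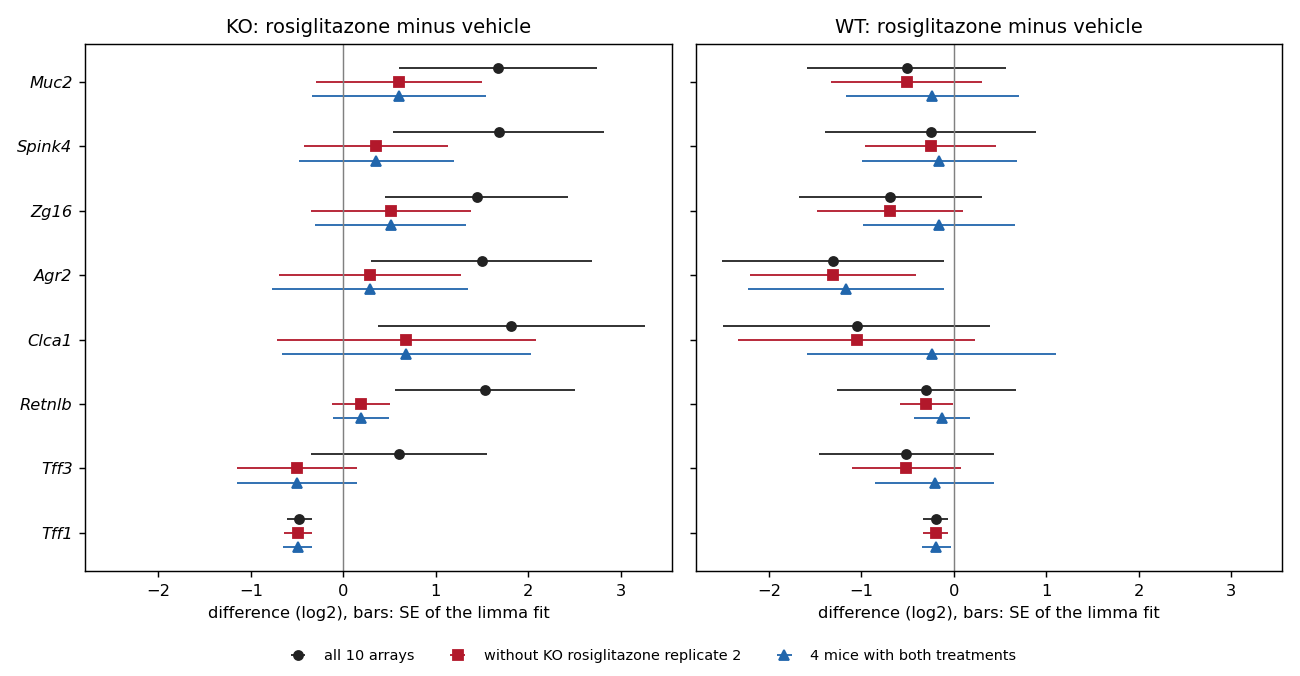
Rosiglitazone minus vehicle (log2, horizontal axis) for each gene in KO (left) and WT (right) organoids, with bars of ± 1 SE from limma, for all 10 arrays (black), without KO rosiglitazone replicate 2 (red) and for the 4 mice with both treatments (blue). In KO organoids Muc2 moves to 0.60 and Tff3 to -0.50 once the array of mouse 45 is left out, and in WT organoids the 8 genes lie below 0 with all arrays.

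The response in KO organoids minus that in WT organoids was positive for 7 of 8 genes, and none passed the threshold (adjusted p = 1.00 each). It was 2.87 (SE 2.05) for Clca1, 2.81 (SE 1.69) for Agr2, 2.18 (SE 1.52) for Muc2, 2.13 (SE 1.40) for Zg16, 1.93 (SE 1.61) for Spink4, 1.83 (SE 1.37) for Retnlb, 1.12 (SE 1.34) for Tff3 and -0.28 (SE 0.19) for Tff1. The median was 2.03, and 44.6% of all probe sets were above 0 and 2.93% above 0.5. Of all probe sets 0% were called, and 2.32% (536) had an unadjusted p under 0.05. Without KO rosiglitazone replicate 2 the median was 0.86, and without KO rosiglitazone replicate 1 it was 3.21. On the 4 mice with both treatments the median was 0.59, with 1.45 for Agr2, 0.83 for Muc2, 0.92 for Clca1 and -0.30 for Tff3 (adjusted p = 1.00 each). The fit of all 10 arrays with the mouse as a fixed block gave the same differences with other errors, and adjusted p of 0.502 for Agr2 (SE 0.19) and 0.957 for Muc2 and Clca1.

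Between genotypes in vehicle, with 2 arrays a group, 5 of 8 genes had a lower mean in KO organoids (55.6% of all probe sets had a higher mean in KO) and none passed the threshold. Agr2 differed by -1.47 (SE 1.31), Clca1 by -1.29 (SE 1.58), Zg16 by -1.003 (SE 1.08), Muc2 by -0.94 (SE 1.18) and Retnlb by -0.60 (SE 1.06). Tff1 had 0.15 (SE 0.15), Tff3 0.12 (SE 1.04) and Spink4 0.02 (SE 1.25), and adjusted p-values ran from 0.873 to 0.999. The groups overlapped for all 8 genes, where 23% of all probe sets were higher and 16.1% lower in KO without overlap. Of all probe sets 0% were called, and 5.69% (1314) had an unadjusted p under 0.05. With the mouse as a random block these 5 differences were nearer to 0, at -0.88 for Agr2, -0.44 for Clca1, -0.36 for Zg16, -0.35 for Muc2 and 0.066 for Retnlb, Spink4 had 0.65 and Tff3 0.74, and the median was -0.14. The lower means depended on single arrays. Without KO vehicle replicate 1 (mouse 46), Muc2 differed by 0.01, Agr2 by 0.04 and Clca1 by 0.25, and the median over the 8 genes was 0.05, against -0.77 with all arrays and -1.43 without KO vehicle replicate 2 (mouse 44).

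Between genotypes in rosiglitazone, 7 of 8 genes had a higher mean in KO organoids, each by more than 0.5, and none passed the threshold. Spink4 differed by 1.96 (SE 1.02, unadjusted p = 0.0833), Clca1 by 1.58 (SE 1.29), Agr2 by 1.34 (SE 1.07), Muc2 by 1.24 (SE 0.96), Retnlb by 1.24 (SE 0.87), Tff3 by 1.23 (SE 0.85) and Zg16 by 1.13 (SE 0.89), with an adjusted p of 0.999 for each. Tff1 had -0.12 (SE 0.12) and was the only member whose groups did not overlap, where 4.47% of probe sets were lower in KO without overlap. Of all probe sets 50.5% were above 0 and 1.23% above 0.5, 0.0216% (5) were called, and 4.81% (1110) had an unadjusted p under 0.05.

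On the 4 mice with both treatments 6 of these 7 genes turned direction, with -0.11 for Muc2, -0.33 for Zg16, -0.37 for Clca1, -0.27 for Retnlb, -0.18 for Tff3 and -0.015 for Agr2, and the median was -0.16. Single KO rosiglitazone arrays moved this comparison in opposite ways. Without replicate 2 (mouse 45) the median was 0.15, with 0.17 for Muc2, 0.13 for Agr2 and -0.11 for Retnlb. Without replicate 1 (mouse 46) the median was 2.42, with 3.26 for Spink4, 3.20 for Clca1, 2.66 for Agr2, 2.45 for Muc2 and 2.38 for Tff3. That array was the lowest of the KO rosiglitazone group for each of these genes, so leaving it out raises the differences. The smallest adjusted p in limma, 0.313 for Agr2, came without both arrays of mouse 46, a setting chosen after the data were seen. The genotype differences, like the drug differences, share arrays with each other, so their signs are not independent.

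To ask which other genes shared the pattern, each array was given a goblet gene level, the mean of the centred log2 values of the 6 members brighter than the median probe set (Muc2, Spink4, Zg16, Agr2, Clca1 and Tff3). It was -1.70, 3.11 and 1.15 in KO rosiglitazone arrays, -1.58 and 0.38 in KO vehicle arrays, -1.28, -0.01 and -0.39 in WT rosiglitazone arrays, and 0.53 and -0.21 in WT vehicle arrays. The rosiglitazone arrays of mice 45 and 44 lay at the top, and the arrays of mice 46 and 48 at the bottom. Spink4 was brighter than the median (mean 4.85 against 4.51) only with the array of mouse 45, at 8.77. The level therefore holds a member admitted through the array where it was highest. Among 1195 other genes above the median with a range of at least 1 unit, 6 had r above 0.9 and 7 had r below -0.9 with this level over 10 arrays. Both filters used all 10 arrays, so a gene could enter through the array of mouse 45, where the level was highest. Above 0.8 were 42 of them, and below -0.8 were 35. The level had r = -0.65 with the first and 0.54 with the second principal component (27.4% and 17.7% of the variance). The share of all genes past 0.5 or -0.5 was not counted, so the list counts below have no background to be set against.

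Ang4, an antimicrobial ribonuclease of goblet and Paneth cells in the mouse, was most alike (r = 0.97, or 0.93 without KO rosiglitazone replicate 2). It read 3.38, 7.69 and 6.09 in KO rosiglitazone arrays, 4.38 and 5.46 in KO vehicle arrays, 4.14, 5.27 and 4.65 in WT rosiglitazone arrays, and 5.27 and 4.46 in WT vehicle arrays. The next were Camk1d, a calmodulin-dependent kinase (0.92), Mrto4, a ribosome assembly factor (0.91), Chpt1, a choline phosphotransferase (0.91), Clca3b, of the same gene family as Clca1 (0.91), Cox10, of heme A synthesis (0.90), Tox3, an HMG-box protein (0.90), and Ago1, an Argonaute protein (0.90). Whether probes of Clca3b and Clca1 hybridise with each other's transcripts was not tested. Most opposite were Ceacam18 (-0.93), Naa30, an N-terminal acetyltransferase (-0.93), Dhrs9, a short-chain dehydrogenase (-0.93), and Trim31, a ubiquitin ligase (-0.93). Without KO rosiglitazone replicate 2 the ranges of Mrto4, Cox10, Ago1, Naa30, Dhrs9 and Trim31 were under 1 unit. These genes thus passed the range filter only through the array that is extreme in the goblet gene level. Dhrs9 read 6.74, 4.13 and 5.90 in KO rosiglitazone arrays, 6.89 and 6.07 in KO vehicle arrays, 6.47, 6.00 and 6.85 in WT rosiglitazone arrays, and 5.93 and 6.41 in WT vehicle arrays.

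All 15 regulators of the goblet cell fate on the list were measured, and 8 had a mean above the median of probe sets. Below it were Atoh1, Spdef, Gfi1, Ern2, Dll1, Dll4 and Creb3l4. Atoh1, the factor that commits progenitors to the secretory fate, had r = 0.92 with the goblet gene level (0.83 without KO rosiglitazone replicate 2). Although dim, it read 2.47, 4.04 and 3.07 in KO rosiglitazone arrays, 2.06 and 3.37 in KO vehicle arrays, 2.43, 2.86 and 3.12 in WT rosiglitazone arrays, and 3.01 and 3.02 in WT vehicle arrays. Spdef, the maturation factor, was also dim (mean 3.47) and had r = 0.86 (0.77 without that array). It read 3.03, 4.12 and 4.06 in KO rosiglitazone arrays, 3.03 and 3.26 in KO vehicle arrays, 3.48, 3.52 and 3.41 in WT rosiglitazone arrays, and 3.54 and 3.29 in WT vehicle arrays. Both were among the lowest in the arrays of mouse 46 and highest in that of mouse 45. Foxa1 had 0.77 (0.66 without that array) and Creb3l1 had 0.73 (0.61). Several regulators depended on the array of mouse 45. Without it Foxa3 had 0.42, against 0.70 with all arrays. Ern2, the goblet cell sensor of misfolded protein, had 0.29 against 0.56, and Gfi1 0.03 against 0.43. Klf4 had 0.56 without it against -0.06, and Hes1, the Notch target that represses Atoh1, had 0.63 against 0.16. Over the 8 arrays of the 4 mice with both treatments Klf4 had 0.76 and Hes1 0.88. Of the other Notch pathway genes, Notch1 had 0.22 without that array against 0.38, Dll1 -0.21 against -0.26 and Dll4 0.30 against -0.10. Foxa2 had -0.07 against -0.01, Creb3l4 0.15 against 0.07, and Xbp1, a factor of the unfolded protein response, -0.28 against -0.48. In KO organoids 10 of 15 regulators had a higher mean in rosiglitazone (median 0.10, against -0.02 over all genes), with 0.48 (SE 0.45) for Atoh1 and 0.59 (SE 0.28) for Spdef, and in WT organoids 5 of 15 (median -0.02). None of the 15 passed the threshold in either genotype.

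**Figure D4:**
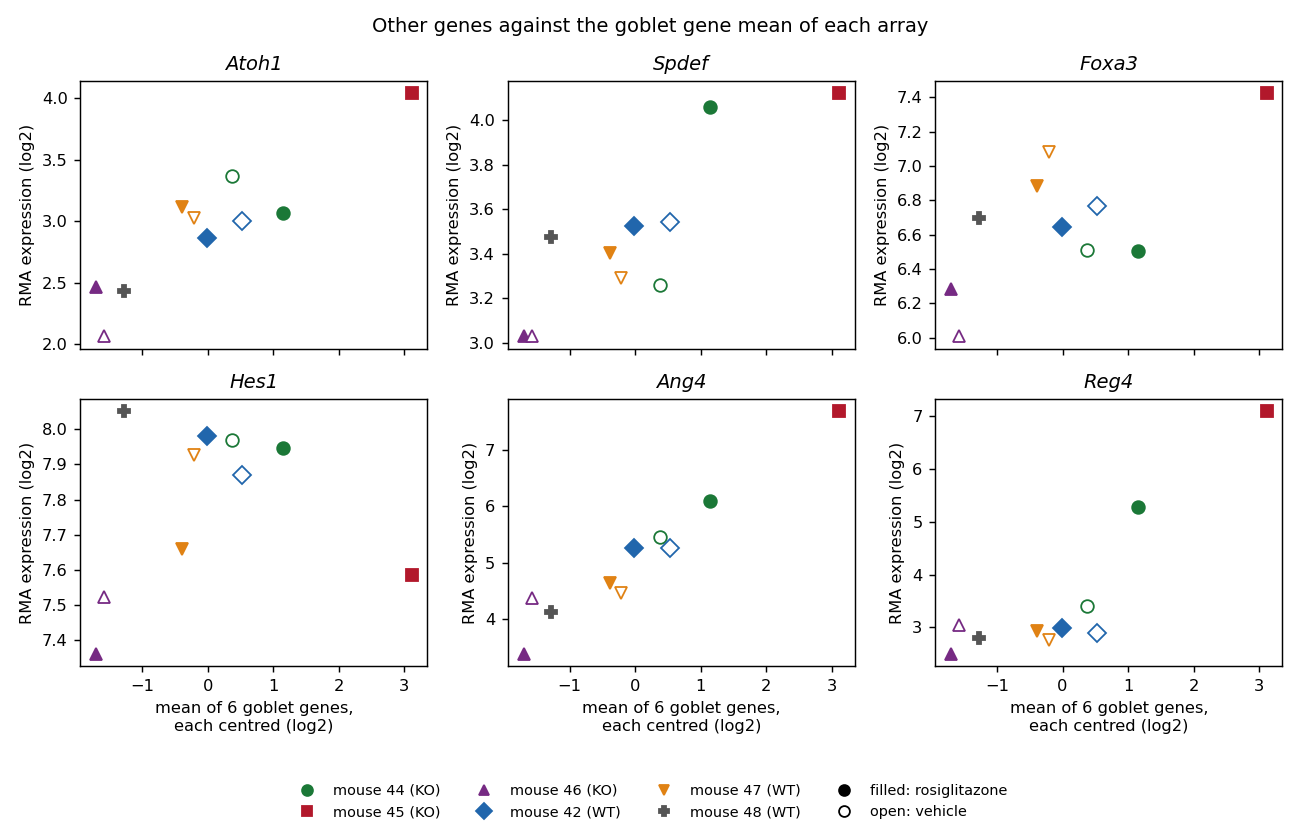
RMA expression (log2, vertical axis) of 6 other genes against the goblet gene level of each array (mean of 6 centred goblet genes, log2, horizontal axis), with 1 symbol per mouse, filled for rosiglitazone and open for vehicle. Atoh1, Spdef and Ang4 have r of 0.86 to 0.97 with the level, Hes1 has 0.16 with all arrays and 0.63 without the array of mouse 45, and Reg4 is above 5 on 2 arrays only, those of mice 45 and 44 with rosiglitazone.

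Of 28 other goblet cell products measured, 16 had a higher mean in KO rosiglitazone than in KO vehicle (median 0.10), where 46.4% of all probe sets did, and 0 passed the threshold. With the goblet gene level, 9 of the 28 had r above 0.5 and 2 had r below -0.5 over 10 arrays, and 5 and 2 without KO rosiglitazone replicate 2. The share of all genes past these marks was not counted. Those with the smallest p were Guca2a, the hormone guanylin (1.50, SE 0.47), Oit1 (0.95, SE 0.33), Pdia5, a protein disulfide isomerase (0.52, SE 0.20), and Smim6 (0.54, SE 0.25). Guca2a read 5.77, 7.45 and 6.41 in KO rosiglitazone arrays, 4.58 and 5.50 in KO vehicle arrays, 5.67, 6.07 and 6.91 in WT rosiglitazone arrays, and 7.25 and 7.22 in WT vehicle arrays. The KO groups did not overlap for Guca2a, and the share of all probe sets higher in KO rosiglitazone without overlap is not given here. Its WT vehicle arrays lay above the WT rosiglitazone arrays, where 6.78% of probe sets were lower in rosiglitazone without overlap. Guca2a is also a colonocyte gene and stands in that list as well.

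Of 23 measured genes that build and export the sugar chains of mucin, 12 had a higher mean in KO rosiglitazone than in KO vehicle (median 0.00), and 0 passed the threshold. With the goblet gene level 0 of the 23 had r above 0.5, and 4 had r below -0.5, namely Gcnt1 (-0.83), Galnt3 (-0.79), Galnt7 (-0.72) and Gcnt3 (-0.60), which all encode glycosyltransferases and are named after their values were seen. Without KO rosiglitazone replicate 2, 1 was above 0.5 and 2 were below -0.5, and Gcnt3 had -0.05. Here too the share of all genes was not counted. St6galnac6, a sialyltransferase, had the smallest p, with 3.64, 4.81 and 3.87 in KO rosiglitazone arrays, 2.90 and 2.98 in KO vehicle arrays, 4.31, 4.90 and 5.18 in WT rosiglitazone arrays, and 4.39 and 4.80 in WT vehicle arrays (KO difference 1.17, SE 0.33, unadjusted p = 0.00556). Its KO vehicle arrays lay below all others, and the share of probe sets with this order was not counted. Against WT vehicle alone, 16.1% of probe sets were lower in KO vehicle without overlap. Gcnt4, a core-branching glycosyltransferase, differed by 0.47 (SE 0.15). Of 9 other mucins, 3 had a higher mean in KO rosiglitazone than in KO vehicle (median -0.06), and of 19 genes of folding and stress in the endoplasmic reticulum, 6 did (median -0.06). The mean of the folding genes had r = -0.59 with the goblet gene level.

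Mean levels of some other secretory and crypt cell lists had a positive r with the goblet gene level, and a lower one without the array of mouse 45. The mean of the tuft cell list had r = 0.19. The mean of 12 measured genes of deep crypt secretory and Paneth cells, of which 3 had a mean above the median probe set, was 3.45, 5.12 and 4.17 in KO rosiglitazone arrays, 3.55 and 3.86 in KO vehicle arrays, 3.69, 3.79 and 3.55 in WT rosiglitazone arrays, and 3.66 and 3.63 in WT vehicle arrays (r = 0.90 with the goblet gene level, or 0.79 without KO rosiglitazone replicate 2). In KO organoids 10 of these 12 had a higher mean in rosiglitazone (median 0.25), and 0 passed the threshold. Of the 12, 7 had r above 0.5 and 0 had r below -0.5, and 5 and 1 without KO rosiglitazone replicate 2. Lyz1, named after its value was seen, had -0.57 without that array, against 0.50 with all arrays. Reg4, which marks the deep crypt secretory cells and is also listed among the goblet products, read 2.49, 7.10 and 5.29 in KO rosiglitazone arrays, 3.04 and 3.42 in KO vehicle arrays, and 2.77 to 2.99 in WT arrays. Defa24, a Paneth cell defensin, read 7.05 in the array of mouse 45, 3.45 in the rosiglitazone array of mouse 44 and 1.50 to 2.29 in the other 8. For 14 enteroendocrine genes, none with a mean above the median probe set, the list mean was 3.29 in the array of mouse 45 and 2.70 to 2.91 in the other 9 (r = 0.87, or 0.66 without it). Crypt stem cell genes (13 measured, r = 0.74, or 0.48 without that array) and proliferation genes (17 measured, r = 0.67, or 0.35 without it) also had their highest mean in the array of mouse 45, at 6.99 and 8.80. Above 0.5 and below -0.5 lay 7 and 0 of the enteroendocrine, 8 and 0 of the stem cell and 12 and 0 of the proliferation genes. Without the array of mouse 45 these counts were 4 and 2, 4 and 1, and 5 and 1. The share of all genes past 0.5 or -0.5 was not counted, so the counts in this paragraph are not read as a result about these lists. The part of these cells in the goblet gene differences was not tested.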

How the data were processed

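The deposited table holds log2 expression values made by the authors with RMA, per the submitters' processing notes. No version or chip definition of it is given in the labels. RMA adjusts the background, normalizes quantiles across arrays and summarises probes, so levels of different probe sets are not compared. All 10 columns were mapped to samples by name. Of 35556 probe sets, the 23099 in the platform annotation were tested, 21218 of them with a single gene symbol. A gene with several was represented by the one with the highest mean. Arrays carry no read depth, and their number limits the precision.

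Group means over all 10 arrays were fitted with limma 3.58.1 in R 4.3.3 (lmFit, contrasts and eBayes, 6 residual and 4.39 prior degrees of freedom), two-sided, with Benjamini-Hochberg adjustment over the 23099 probe sets and a threshold of 0.05. SE is that of the fit, and each difference is the group named first minus the one named second. Where labels do not state separate cultures, p-values measure the spread between these arrays. In simulated data, 200 probe sets drawn at random, each with its own spread, were changed in KO rosiglitazone and tested against KO vehicle. Recovered were 123 at a log2 change of 1, 191 at 2 and 199 at 4, with 8, 5 and 7 false calls. Arrays of a mouse were simulated as independent. The members had wider errors in this comparison (median SE 1.03, against 0.17 over all probe sets). These counts therefore do not say which change would be found in the members.

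Donor labels pair the arrays of 4 mice. Differences between mice in vehicle and in rosiglitazone correlated at r = 0.487 (KO mice 44 and 46) and 0.44 (WT mice 42 and 47). Fits with the mouse as a fixed or a random block (statmod 1.5.0, consensus correlation 0.438) were alternatives, as were centring, repeated quantile normalization, bright probe sets only, all probe sets, only the groups compared, only the 4 mice, and leaving out each array.

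The members and lists were chosen with earlier results of these data known. Named were the members, Pparg, the 8 genes most like and the 4 most unlike the goblet gene level, and all fate regulators. Of some other lists, up to 4 genes with the smallest p in the comparison described were named. Other genes of the lists were named for their r or level. Promoter sequences came from RefSeq.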

Additional observations from a re-analysis of the deposited data

Results flagged for a closer look

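In 3 of the 8 genes each KO mouse with arrays of both treatments moved opposite to each WT mouse, as did 11.8% of all probe sets. In these 3 the KO mice were higher and the WT mice lower with rosiglitazone, as in 5.81% of all probe sets. Rosiglitazone minus vehicle for Muc2 was 0.99 in mouse 44 and 0.22 in mouse 46, both KO, against -0.12 in mouse 42 and -0.35 in mouse 47, both WT, so that the mean response in KO minus that in WT was 0.83. For Agr2 the KO mice had 0.22 and 0.36 and the WT mice -0.98 and -1.35, a difference of 1.45. For Clca1 the KO mice had 1.25 and 0.11 and the WT mice -0.38 and -0.09, a difference of 0.92. The test of the difference in limma, with the mouse as a fixed block, gave unadjusted p of 0.0199 for Muc2, 0.000181 for Agr2 and 0.0404 for Clca1, and adjusted p of 0.957, 0.502 and 0.957. This fit takes a mean per mouse and so has fewer residual degrees of freedom than the 6 of the main fit. The share of all probe sets with unadjusted p-values this small in it was not counted. The test uses the same values by which these genes were singled out, so it is no independent support. The groups held 2 or 3 arrays each, too few for a test of single outlying arrays.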

How the results depend on the processing

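The 8 genes gave 726 values under 19 alternatives. Of these 699 kept their direction and their side of the threshold, 27 turned direction (13 of them with 1 array left out), and 0 passed the threshold. Many of the 699 directions could not turn. A difference of group means stays the same when an array of another group is left out. It also stays the same with all probe sets, with bright probe sets only and with only the groups compared. The count of 699 is therefore no measure of robustness. The smallest adjusted p was 0.257, for Agr2 in WT organoids with the mouse as a fixed block. Each gene had 1 probe set, so averaging probe sets could change nothing and was not run. A fixed block gives no comparison of genotypes, bright probe sets only leave out Retnlb and Tff1, and fitting only the groups compared cannot be applied to the difference of responses. The cause of the changes below was not tested.

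With the mouse as a fixed block, and on the 4 mice with both treatments, Tff3 had -0.50 in KO organoids and -0.30 for the difference of responses, whose median was 0.59. With the mouse as a random block Retnlb had 0.066 for KO minus WT in vehicle. Without mouse 46, a setting chosen after the data were seen, Muc2 (0.0068), Agr2 (0.039) and Clca1 (0.25) turned direction in that comparison. For KO minus WT in rosiglitazone, the 4 mice gave -0.11 for Muc2, -0.33 for Zg16, -0.015 for Agr2, -0.37 for Clca1, -0.27 for Retnlb and -0.18 for Tff3.

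With 1 array left out at a time, the response in KO organoids ran from -0.50 to 1.75 for Tff3 and from -0.0098 to 3.01 for Agr2. In WT organoids it ran from -1.07 to 0.047 for Muc2, from -0.85 to 0.35 for Spink4 and from -0.64 to 0.045 for Retnlb. KO minus WT in vehicle ran from -1.89 to 0.0068 for Muc2, from -2.98 to 0.039 for Agr2, from -2.84 to 0.25 for Clca1, from -0.66 to 0.71 for Spink4, from -0.13 to 0.37 for Tff3 and from -0.0079 to 0.31 for Tff1. In rosiglitazone it ran from -0.11 to 2.02 for Retnlb.

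The count of all probe sets called was 0 for rosiglitazone against vehicle in KO and 1 with a random block. For KO against WT in vehicle it was 0, and 1 with a random block, 2 with centring, 1 with quantile normalization, 1 with bright probe sets, 4 with only the groups compared, 6 on the 4 mice and 0 to 6 with 1 array left out. For KO against WT in rosiglitazone it was 5, and 1 with quantile normalization, with all probe sets, with only the groups compared or without mouse 46, 16 on the 4 mice and 1 to 23 with 1 array left out. The highest of these, 6 and 23, came without WT rosiglitazone replicate 1. None of the called probe sets was one of the 8 genes.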

Other observations

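Genes of absorptive cells went both ways with the goblet gene level. Of 21 genes of differentiated colonocytes, 3 had r above 0.5 over the 10 arrays, namely the chloride exchanger Slc26a3 (0.84), Guca2a (0.66) and the carbonic anhydrase Car4 (0.51). In the other direction 5 had r below -0.5, namely Cdhr5 (-0.80), Krt20 (-0.73), Cdhr2 (-0.71), Emp1 (-0.70) and Ceacam20 (-0.50). These 8 are named after their values were seen, and the share of all genes past 0.5 or -0.5 was not counted. Without KO rosiglitazone replicate 2, Car4 had 0.17, Krt20 -0.31, Cdhr2 -0.46, Emp1 -0.25 and Ceacam20 -0.23, while Slc26a3 had 0.57, Guca2a 0.55 and Cdhr5 -0.76. The mean of the 21 genes was 6.60, 6.58 and 6.48 in KO rosiglitazone arrays, 6.46 and 6.27 in KO vehicle arrays, 6.34, 6.69 and 7.20 in WT rosiglitazone arrays, and 6.85 and 7.22 in WT vehicle arrays. In WT organoids 2 of the 21 had a higher mean in rosiglitazone than in vehicle (median -0.14, against 0.02 over all genes), and in KO organoids 10 of 21 did (median -0.06). None passed the threshold in either genotype. Tuft cell genes, 10 measured, had r = 0.19 with the goblet gene level, and their mean lay between 3.01 and 3.28 on every array.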
